A study of Mus musculus with 5 samples.

Results

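The genes of fibronectin, the fibrillins and the hyaluronan matrix were followed cell by cell in the circulation of the mouse embryo. They are 7 of the 24411 genes in the table of molecule counts, and they were chosen by name. The set holds fibronectin (Fn1), fibrillin 1 (Fbn1), fibrillin 2 (Fbn2), versican (Vcan), hyaluronan synthase 2 (Has2), the hyaluronan and proteoglycan link protein (Hapln1) and periostin (Postn). All embryos were wild type and of the strain C57BL/6, with no treatment in any group. E9.5 (embryonic day 9.5) was represented by 2 batches and E10 by 3. Blood was drawn from the heart, and cells lacking TER119, CD41, CD43 and CD45 on their surface, which are markers of blood cells, were sorted. Single cells were picked by mouth pipette and sequenced with a modified STRT-seq method, in which a unique molecular identifier (UMI) tags each mRNA molecule at its poly(A) end. A UMI therefore counts 1 molecule whatever the length of its gene, and levels of different genes are given on that scale. Nothing in the labels ties a batch to a litter of its own. Between stages, p-values thus measure the spread between these batches. Between the cell classes defined below, batch is a block, and p-values measure how class differences vary from batch to batch. Either spread may be technical. Each batch holds 1 stage, and stage cannot be told apart from other differences between batches of 1 stage and those of the other.

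Of 480 columns, 294 held at least 1000 genes and 30000 UMIs and were kept, with 31294 to 1407021 UMIs per cell. E9.5 replicates 1 and 2 gave 26 and 46 cells, and E10 replicates 1, 2 and 3 gave 87, 72 and 63. Levels are given in CPM, a gene's share of all UMIs scaled to a common total, either of 1 cell or of the counts summed over the cells of a class in a batch. Classes were cut from single genes and are ranges of those genes, not proven cell types. Blood cells had at least 400 CPM of the haem enzyme gene Alas2 (46 cells). Of the remainder, neural cells had at least 150 CPM of the neuronal tubulin gene Tubb3 or 50 CPM of the neural crest gene Sox10 (49 cells). Mesenchyme cells then had at least 100 CPM of the homeobox gene Prrx1 (125 cells), and 74 other cells passed no limit. The Prrx1 limit lay in a populated range, with 19 cells between 50 and 100 CPM and 17 between 100 and 200 CPM, and 3 cells that passed the neural limit passed the Prrx1 limit too.

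The labels call the cells non-hematopoietic, yet 7 of 8 blood markers had a median of at least 20 CPM in the Alas2 class, Hba-a1 being at 0. All 9 mesenchymal markers reached that median in the Prrx1 class and all 8 neural markers in the neural class, while the 8 endothelial and 5 macrophage markers had a median of 0 in each of the 4 classes. These lists include Alas2, Prrx1, Tubb3 and Sox10, whose levels defined the classes, so their passing is no separate evidence. Of the 8 blood markers, 5 reached that median in the other cells, 3 in neural cells and 3 in mesenchyme. Haemoglobin genes took a median of 0.0335% (E10 replicate 1) to 5.19% (E10 replicate 2) of the UMIs of cells outside the blood class. Some molecules in every cell may thus have come from other cells, and the blood class is given throughout as the comparison for low levels. In E10 replicate 1, 25 cells carried at least 500 CPM of the early embryonic gene Dppa5a, and no cell of another batch did. The 96 well numbers are reused in every batch by design, and 90 of them held kept cells in at least 2 batches. No kept well both held under 10% of the UMIs of its namesake in another batch and correlated best with it, which was the sign looked for of a profile carried between plates. At a minimum of 5000 UMIs, used below as an alternative, 327 cells were kept and 23 such cases were found.

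As background, fibronectin is a secreted glycoprotein that cells assemble into fibrils through integrins, above all the integrin of the Itga5 and Itgb1 chains. Fibrillins polymerise into microfibrils, which carry elastin and hold latent growth factors of the TGF-beta family. Hyaluronan is a long sugar chain extruded at the cell surface by hyaluronan synthases, and link proteins fasten the proteoglycan versican to it. In the embryonic heart this hydrated matrix fills the cardiac jelly and the endocardial cushions, and it also surrounds migrating mesenchyme and neural crest.

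Fn1, Fbn2 and Vcan formed the abundant group, each with mean levels over 100 CPM in mesenchyme, and their levels were lowest in blood. Fbn1, Has2, Hapln1 and Postn were sparse, each with a mean under 20 CPM in mesenchyme. In the plot of levels by batch, mesenchyme had the highest mean of the 4 classes for Fn1, Fbn1, Fbn2, Vcan and Has2. The highest mean of Hapln1 was in the other cells and that of Postn in the neural cells. The spread between batches was wide, and classes that were neighbours in the order of means overlapped for every gene, except that neural cells and blood did not for Fbn1 and Fbn2.

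**Figure D1:**
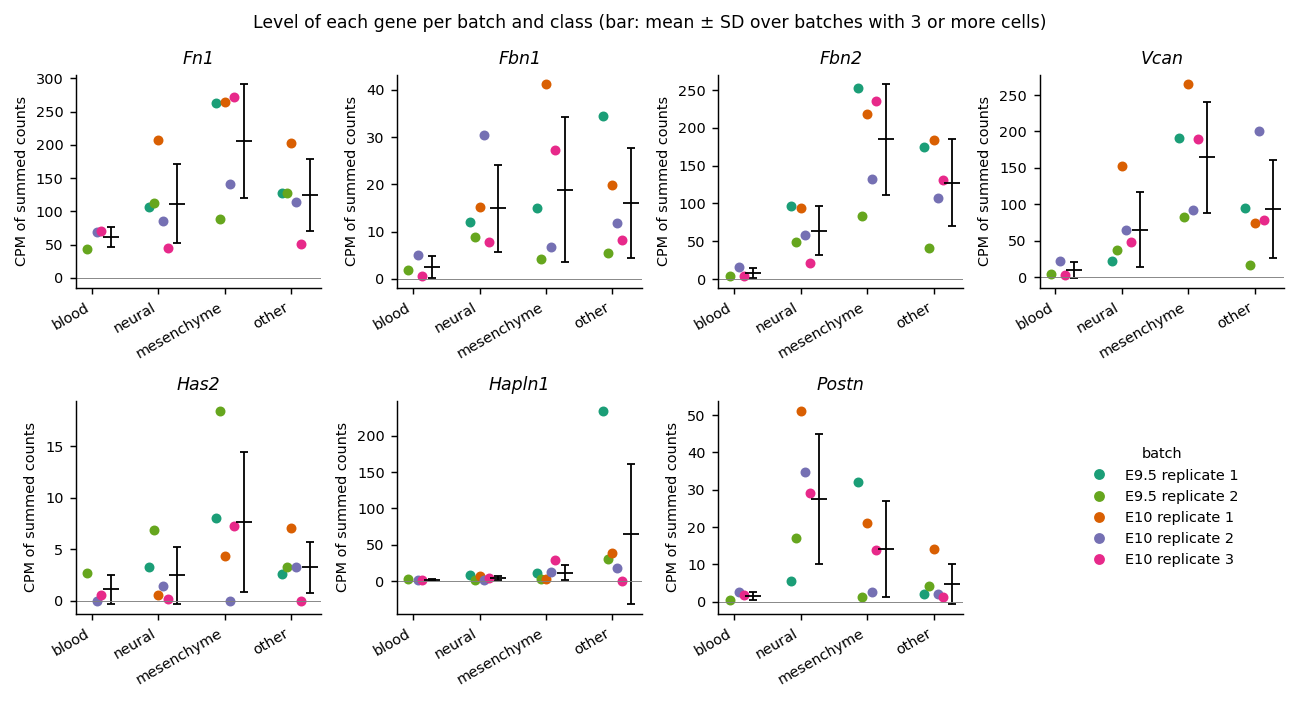
Level of each gene (vertical axis, CPM of the counts summed over the cells of a class) in the 4 classes (horizontal axis). Each point is 1 batch with at least 3 cells of the class, coloured by batch, and the bars give the mean and the SD over batches; Fbn2 and Vcan in blood reach at most 22.6 CPM, while mesenchyme is at 82.8 CPM or more in every batch.

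Vcan encodes versican, the large chondroitin sulphate proteoglycan that binds hyaluronan. It lies on chromosome 13 from 89655309 to 89743027 on the minus strand (GRCm38.p6, the assembly that mm10 stands for). In mesenchyme its level was 191 and 82.8 CPM in E9.5 replicates 1 and 2 and 265, 92.6 and 190 CPM in E10 replicates 1, 2 and 3. The level in the other cells was 95.5, 16.2, 74.4, 200 and 78.9 CPM in the same order. In neural cells it was 21.8, 37.1, 153, 64.5 and 47.6 CPM. Mesenchyme was above the neural cells in all 5 batches and above the other cells in 4, E10 replicate 2 being the exception, although the ranges over batches overlapped. In blood the level was 3.85 CPM in E9.5 replicate 2 and 22.6 and 3.15 CPM in E10 replicates 2 and 3, all below every mesenchyme value. The highest of these was in the batch with the highest haemoglobin share outside blood, and the part of free RNA in it was not tested. A UMI of Vcan was found in 95.2% of mesenchyme cells and in 84.8% of blood cells, whose median depths were 277773 and 371308 UMIs. With every cell thinned at random to 30000 UMIs, which left out none of them, the shares were 82.4% in mesenchyme, 67.6% in other, 53.1% in neural and 28.3% in blood cells.

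The Vcan promoter is shown because Vcan is the hyaluronan matrix gene that differed between classes. The sequence gives the 250 bases before a RefSeq start of Vcan that lies inside the span given above, at chr13:89742513-89742762 on the minus strand of GRCm38.p6, a window free of annotated exons in GENCODE. Capitals mark every match, on either strand, to 5 motifs, and no matches overlap here. They are the TATA motif (TATAAA), the CCAAT box (CCAAT), the GC box (GGGCGG), the E-box (CANNTG) and the motif of TEAD factors (GGAATG).
Vcan: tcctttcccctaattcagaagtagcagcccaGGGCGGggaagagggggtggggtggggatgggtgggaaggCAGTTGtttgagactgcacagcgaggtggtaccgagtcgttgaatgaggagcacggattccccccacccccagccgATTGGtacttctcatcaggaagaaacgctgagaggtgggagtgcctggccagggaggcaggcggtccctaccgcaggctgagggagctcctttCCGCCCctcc
GGGCGG occurred 2 times, beginning 219 and 10 bases before the start, CCAAT began 103 bases before it and CANNTG 179 bases before it. Of 32851 RefSeq promoter windows of the same length, 32.7% held GGGCGG, 33.8% CCAAT and 66.2% CANNTG, so each match is a common one, and nothing on a factor's binding follows from it.

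Has2 encodes the main hyaluronan synthase of the embryo and lies on chromosome 15 from 56665627 to 56694546 on the minus strand. Its level in mesenchyme was 7.99 and 18.5 CPM in E9.5 replicates 1 and 2 and 4.36, 0 and 7.28 CPM in E10 replicates 1, 2 and 3. The batch at 0 had 16 mesenchyme cells with 4037725 UMIs, and a limit of 3 counts in 16 allows up to 18.75% of such cells to hold a UMI (20.6% as the exact 95% binomial bound); the 23 blood cells of that batch were at 0 too. The other cells of the same batch held 34 UMIs of Has2, in 9 of 29 cells. Mean levels were 3.22 ± 2.52 CPM in other cells and 2.45 ± 2.74 CPM in neural cells (SD, n = 5), and 1.07 ± 1.43 CPM in blood (n = 3). These means are those of few molecules, 223 UMIs over all 125 mesenchyme cells and 12 over all 46 blood cells. After thinning, 15 of 125 mesenchyme cells held a UMI, as did 10.8% of other, 6.12% of neural and 2.17% of blood cells. The antisense gene Has2os overlaps an exon of Has2 and held 11 UMIs, and as no strand setting is given in the sources used here, reads of the pair cannot be told apart.

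Hapln1 encodes the link protein that ties versican to hyaluronan. It is the neighbour of Vcan on chromosome 13, from 89540529 to 89611832 on the plus strand, with 43.7 kb and no protein-coding gene between them. In the other cells its level was 235 and 30.01 CPM in E9.5 replicates 1 and 2 and 39.3, 18.1 and 0.243 CPM in E10 replicates 1, 2 and 3. E9.5 replicate 1 stood far above the remaining batches. In mesenchyme it was 10.6, 3.24, 3.13, 12.1 and 28.9 CPM in the same order, and it averaged 4.46 ± 2.65 CPM in neural cells (SD, n = 5) and 1.87 ± 0.921 CPM in blood (n = 3). Other cells and mesenchyme thus overlapped. The level of Hapln1 came from few cells: the median cell of mesenchyme had none, and 10 cells of the 294 exceeded 200 CPM. The 5 highest were all other cells, at 793, 636, 552, 379 and 285 CPM, from 4 of the 5 batches.

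The highest 2 shared a well number, 29, in E9.5 replicates 1 and 2, and well 29 of E10 replicate 3 held 215 CPM. They differed in Fn1, at 205 and 2013 CPM, and why they share a number was not tested.

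The other cells were divided by marker genes after their values were seen. Of the 5 highest cells, 2 had at least 50 CPM of the endothelial genes Cdh5 or Kdr. In the 6 other cells above that level, Hapln1 had a median of 134 CPM and ranged from 1.17 to 793 CPM. E9.5 replicate 1 gave 3 of these cells, E10 replicate 2 gave 2 and E10 replicate 3 gave 1. Summed Hapln1 was 386 CPM in the 3 cells of E9.5 replicate 1 and 178 CPM over all 6, so it came mainly from that batch. Fn1 had a median of 132 CPM and Fbn2 of 152 CPM in the 6 cells, while Vcan had 40.3 CPM. The 16 other cells with at least 50 CPM of the blood progenitor genes Myb or Gfi1b had medians of 1.91 CPM of Hapln1, 22.1 CPM of Fn1, 7.44 CPM of Fbn2 and 6.54 CPM of Vcan. The 45 other cells in none of these groups nor in the Dppa5a group had medians of 0, 122, 174 and 151 CPM in that order, close to mesenchyme, whose cell medians were 0, 155, 163 and 123 CPM. The class of other cells therefore mixed cells that were high and low in Fn1, Fbn2 and Vcan.

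Fn1 encodes fibronectin and lies on chromosome 1 from 71585473 to 71653280 on the minus strand. It was the most widely detected of the 7 genes. Its level in mesenchyme was 263 and 87.9 CPM in E9.5 replicates 1 and 2 and 264, 141 and 272 CPM in E10 replicates 1, 2 and 3. In the other cells it was 128, 127, 203, 114 and 50.5 CPM and in neural cells 106, 113, 207, 86.0 and 45.3 CPM in the same order. Mesenchyme exceeded both in 4 of 5 batches, the exception being E9.5 replicate 2. Against the other cells that exception hung on a single cell. Of the 275 UMIs of Fn1 in the other cells of that batch, well 29 held 190, at 2013 CPM. In blood, Fn1 was the highest of the 7 genes, at 43.5 CPM in E9.5 replicate 2 and 69.4 and 71.1 CPM in E10 replicates 2 and 3, where Fbn2 stood at 4.24, 15.7 and 4.38 CPM. Every blood cell held a UMI of Fn1, and 76.1% still did after thinning, against 90.4% of mesenchyme cells. The antisense transcript Apol7d shares an exon region with Fn1 and held 218 UMIs.

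Fbn2 encodes the fibrillin that is prominent in embryonic microfibrils. Its level in mesenchyme was 254 and 83.7 CPM in E9.5 replicates 1 and 2 and 219, 132 and 235 CPM in E10 replicates 1, 2 and 3. In neural cells it was 97.0, 48.7, 94.6, 58.2 and 20.6 CPM in the same order, lower than mesenchyme in every batch although the ranges overlapped, with the neural value of E9.5 replicate 1 above the mesenchyme value of E9.5 replicate 2. The other cells lay between, at 175, 41.5, 184, 108 and 131 CPM, again below mesenchyme in each batch. Blood was lowest, at 8.09 ± 6.55 CPM (SD, n = 3). The neural class was uneven: the 30 cells that passed the Sox10 limit had a median of 14.0 CPM and reached 478 CPM, while the 12 of them that passed the Tubb3 limit too had a median of 6.04 CPM and reached 17.8 CPM.

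Fbn1 encodes the fibrillin that persists in adult connective tissue, and lies on chromosome 2 from 125300594 to 125506485 on the minus strand. It was far scarcer than Fbn2, with 14.9 and 4.16 CPM in the mesenchyme of E9.5 replicates 1 and 2 and 41.2, 6.69 and 27.2 CPM in E10 replicates 1, 2 and 3. Neural cells averaged 14.9 ± 9.20 CPM and other cells 16.0 ± 11.6 CPM (SD, n = 5), and the 3 classes overlapped throughout. Blood averaged 2.49 ± 2.30 CPM (n = 3). A UMI was found in 52.8% of mesenchyme cells and in 52.2% of the more deeply read blood cells, so these shares do not separate the classes. After thinning they were 25.6% and 10.9%.

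Postn encodes periostin, a matricellular protein of the fasciclin family found in valve mesenchyme and in neural crest derivatives. It lies on chromosome 3 from 54359267 to 54391041 on the plus strand. In neural cells its level was 5.45 and 17.2 CPM in E9.5 replicates 1 and 2 and 51.2, 34.7 and 29.0 CPM in E10 replicates 1, 2 and 3. In mesenchyme it was 32.0, 1.39, 21.0, 2.48 and 13.7 CPM, lower than the neural cells in 4 of 5 batches, with wide overlap. The other cells averaged 4.74 ± 5.39 CPM (SD, n = 5) and blood 1.61 ± 1.10 CPM (n = 3). The level hung on single cells. In E10 replicate 1, the neural cell of well 10 held 1044 CPM of Postn together with 1757 CPM of Fn1, 1555 CPM of Vcan and 186 CPM of Hapln1. That cell passed the neural limit through Tubb3 at 191 CPM, had 0 CPM of Sox10 and carried 217 CPM of the mesenchymal gene Twist1. Without it the neural level of that batch was 15.1 instead of 51.2 CPM for Postn, 0.376 instead of 6.90 CPM for Hapln1 and 101 instead of 153 CPM for Vcan.

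The Postn promoter is shown because it alone, of the 5 windows held for Fbn1, Vcan, Hapln1 and Postn, has a TATA motif. The sequence gives the 250 bases before the downstream of its 2 RefSeq starts, at chr3:54360857-54361106 on the plus strand of GRCm38.p6, free of annotated exons, with the motif TATAAA in capitals.
Postn: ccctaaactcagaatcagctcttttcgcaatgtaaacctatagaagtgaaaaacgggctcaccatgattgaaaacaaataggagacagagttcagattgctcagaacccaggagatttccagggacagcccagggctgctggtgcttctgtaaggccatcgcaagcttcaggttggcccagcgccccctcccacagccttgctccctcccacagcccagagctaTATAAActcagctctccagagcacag
The motif began 26 bases before the start, and 12.4% of the RefSeq windows held it on either strand. None of the 4 other motifs searched was present in this window.

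**Figure D2:**
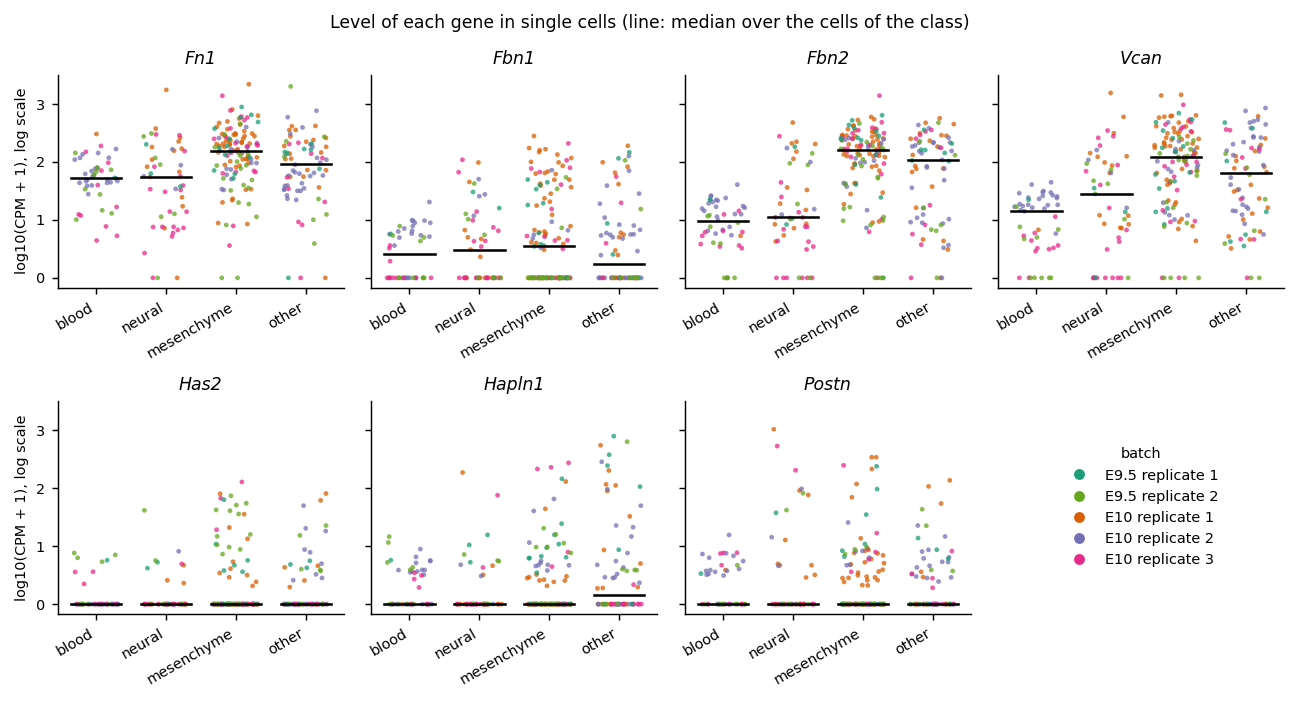
Level of each gene in single cells, as log10 of CPM with 1 added (vertical axis, a log scale), for the 46 blood, 49 neural, 125 mesenchyme and 74 other cells (horizontal axis). Points are cells coloured by batch, and the line is the median of the class, which is 0 CPM for Has2 and Postn in every class while Fn1, Fbn2 and Vcan have medians of 123 to 163 CPM in mesenchyme.

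Mesenchyme was compared with each other class on counts summed per batch, with batch as a block, by edgeR's quasi-likelihood test. These 3 comparisons share the mesenchyme sums. Against blood, in the 3 batches with at least 3 cells of both, Fbn2 and Vcan were higher in mesenchyme and the remaining 5 genes did not pass. That is 2 of 7 genes higher, where 13.3% of the 10246 genes tested were called higher and 27.4% were called in either direction. For Fbn2 the log2 fold change was 3.56 (SE 0.45, Benjamini-Hochberg adjusted p = 2.66e-06), and for Vcan 3.27 (SE 0.55, adjusted p = 9.38e-05), each higher in 3 of 3 batches. Both passed with any 1 batch left out, but the sizes moved, for Fbn2 from 2.92 without E10 replicate 3 to 4.23 without E10 replicate 2 and for Vcan from 2.38 to 4.36 without the same batches. All 7 log2 fold changes were above 0, with a median of 1.92 against 0.06 over all genes tested.

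Fn1 was higher than blood in the CPM of all 3 batches, with no overlap, but edgeR gave it a log2 fold change of only 0.56 (SE 0.30, adjusted p = 0.169). The scaling matters here. Blood gave a median of 18.6% of its UMIs to haemoglobin, and how far this enters the scaling was not tested. TMM scaling, which sets most genes level between classes, puts the median log2 fold change of all genes at 0.06. With totals alone as the scale, an alternative chosen after the data were seen, that median was 0.83, 84.4% of the called genes were higher in mesenchyme instead of 48.5%, and Fn1 passed at 1.33 (adjusted p = 0.00486). Fbn2 and Vcan were called on both scales, at 4.33 and 4.04 on the scale of totals. Has2, Hapln1, Fbn1 and Postn had log2 fold changes of 2.27 (SE 1.46), 1.92 (SE 1.19), 1.38 (SE 1.27) and 0.75 (SE 1.35).

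Against the neural cells, in 5 batches, Fbn2 and Vcan were again higher in mesenchyme, and no member was lower. Here 2 of 7 genes were called higher, where 2.37% of the 10729 genes tested were called higher, 3.19% lower and 5.56% in either direction. The log2 fold change of Fbn2 was 1.56 (SE 0.34, adjusted p = 0.0134) and that of Vcan 1.45 (SE 0.33, adjusted p = 0.0166) in edgeR, each higher in 5 of 5 batches. The call of Vcan was lost without E10 replicate 3 (1.33, adjusted p = 0.0820), in cells thinned to 30000 UMIs (0.92, adjusted p = 0.0869) and without the batch block (1.31, adjusted p = 0.128). Without E10 replicate 3, 316 genes passed in place of 596, without E10 replicate 1 356, and without E9.5 replicate 2 386. Fn1 did not pass, at 0.89 (SE 0.33, adjusted p = 0.162), nor did Postn, at -1.54 (SE 0.83, adjusted p = 0.378).

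Against the other cells none of the 7 genes passed, where 0.746% of the 10717 genes tested did. The log2 fold changes were 1.01 (SE 0.39) for Vcan, 0.63 (SE 0.34) for Fn1, 0.50 (SE 0.18) for Fbn2 and -2.12 (SE 1.22) for Hapln1, and edgeR's adjusted p-values were 0.221, 0.386, 0.195 and 0.426 in that order. At an unadjusted p under 0.05, 1766 genes passed, and DESeq2 called 1 of the 7 genes, Vcan, at 1.00 (adjusted p = 0.0493). Moving the Prrx1 limit to 50 CPM, which takes cells out of the other class, gave Vcan 1.67 (adjusted p = 0.0388), and with no filter on low counts both Vcan (1.02) and Hapln1 (-2.12) passed. With the cells carrying Myb or Gfi1b left out of the other class, none of the 7 genes passed, with values of 0.30 for Vcan (adjusted p = 0.967), 0.035 for Fn1 (0.999), -0.19 for Fbn2 and -0.64 for Fbn1. With 1 batch left out, Vcan lay between 0.72 (without E9.5 replicate 2) and 1.49 (without E10 replicate 2) and Fn1 between 0.24 (without E10 replicate 3) and 0.95 (without E9.5 replicate 2), none passing. Whether the differences from neural and from other cells themselves differ was not tested.

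**Figure D3:**
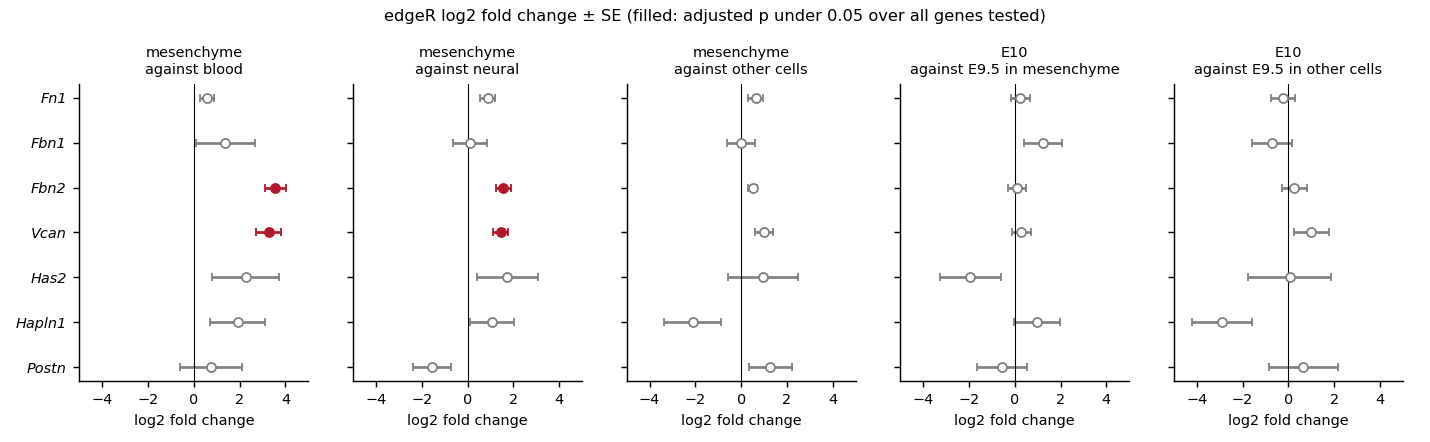
Log2 fold change with its SE (horizontal axis) of each gene (vertical axis) in 3 comparisons of classes and 2 of stages, from edgeR. Filled points have a Benjamini-Hochberg adjusted p under 0.05 over all genes tested; only Fbn2 and Vcan are filled, against blood and against neural cells.

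E10 was compared with E9.5 within mesenchyme and within the other cells, and no gene passed in either. In mesenchyme 0% of the 11528 genes tested in edgeR were called, 1173 had an unadjusted p under 0.05, and DESeq2 called 119 genes but none of the 7. In the other cells 0% of 11449 genes were called, 1133 had an unadjusted p under 0.05, and DESeq2 called 220 genes, again none of the 7. The mean mesenchyme level of Fn1 was 226 ± 73.7 CPM at E10 (SD, n = 3) and 175 ± 124 CPM at E9.5 (n = 2), with a log2 fold change of 0.25 (SE 0.41). Fbn2 stood at 196 ± 55.4 and 169 ± 120 CPM, and Vcan at 183 ± 86.4 and 137 ± 76.8 CPM. In each case the 2 batches of E9.5 differed from one another by more than the stages did. The mesenchyme level of Has2 was 7.99 and 18.5 CPM at E9.5 and 0 to 7.28 CPM at E10. In edgeR its log2 fold change was -1.94 (SE 1.32, adjusted p = 0.656). In the other cells Hapln1 had the greatest difference of the 7, at -2.91 (SE 1.32, adjusted p = 0.518 in edgeR), with E9.5 replicate 1 at 235 CPM and E9.5 replicate 2 at 30.01 CPM.

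The receptors and related matrix genes were read from the same fits. The fibronectin receptor chain genes Itga5 and Itgb1 were higher in mesenchyme than in blood, by log2 fold changes of 2.96 (SE 0.77, adjusted p = 0.00577 in edgeR) and 1.14 (SE 0.40, adjusted p = 0.0374). The call of Itgb1 was lost without E9.5 replicate 2 (1.10), without E10 replicate 3 (0.64) and without the block (1.11). Itgb1 averaged 135 ± 49.3 CPM in mesenchyme and 197 ± 58.8 CPM in neural cells, and Itga5 46.3 ± 26.6 and 25.1 ± 21.1 CPM (SD, n = 5), and neither passed between these classes. Itgav, the chain of vitronectin and fibronectin receptors, averaged 31.3 ± 14.1 CPM in mesenchyme and passed in no comparison, save against blood on the scale of totals (2.40). Cd44, the principal hyaluronan receptor, was scarce in mesenchyme at 4.998 ± 3.70 CPM and stood at 27.0 ± 26.0 CPM in the other cells, without passing. In the other cells it was 1.29 and 52.2 CPM in E9.5 replicates 1 and 2. In E10 replicates 1, 2 and 3 it was 0.264, 28.1 and 53.4 CPM. Its log2 fold change against the other cells was -1.38, and 1.604 with the cells carrying Myb or Gfi1b left out, neither passing.

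In the list of fibronectin receptors and adhesion genes, 9 of 19 tested were higher and 2 lower in mesenchyme than in blood, and 4 were higher and 1 lower than in neural cells. Of all genes tested, 13.3% were higher and 14.1% lower than in blood, and 2.37% and 3.19% than in neural cells, so the share lower than in blood is near that of all genes. The 5 called against neural cells became 3 without E9.5 replicate 2, E10 replicate 1 or E10 replicate 2, 2 without E10 replicate 3 and 3 without the block. The list's median log2 fold changes were 1.35 and 0.69, against 0.06 and 0.04 over all genes. The focal adhesion gene Tns1 was higher in both, by 4.43 (SE 0.79) and 3.50 (SE 0.59). Itga4, whose product binds an alternative site of fibronectin, was lower than in neural cells by a log2 fold change of -2.70 (SE 0.38), at 11.98 ± 8.35 against 73.0 ± 34.6 CPM. Tgm2, which crosslinks fibronectin, was lower than in blood, at 7.44 ± 2.89 against 85.7 ± 20.5 CPM (SD, n = 3), and so was Itgb3, the beta chain of the platelet integrin, at 0.942 ± 0.535 against 6.70 ± 1.83 CPM. The call of Itgb3 was lost with any 1 of the 3 batches left out (-3.89 for E9.5 replicate 2, -4.12 and -2.95 for replicates 2 and 3 of E10) and on the scale of totals (-2.89).

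Among the genes of hyaluronan and proteoglycans, 5 of 13 tested were higher and 1 lower than in blood, and 0 of 14 were higher and 2 lower than in neural cells, where 13.3% and 14.1% of all genes were higher and lower than in blood and 2.37% and 3.19% than in neural cells. The 2 called against neural cells became 4 without E9.5 replicate 1, 1 without E10 replicate 3 and 1 without the block. Those higher than in blood included Tnfaip6, whose product transfers heavy chains to hyaluronan, at 84.3 ± 45.3 against 3.63 ± 2.77 CPM (SD, n = 3). Adamts1 and Adamts20, genes of proteases that cleave versican, were higher too, Adamts1 by a log2 fold change of 3.27 (SE 0.61) and Adamts20 at 8.90 ± 1.28 against 0.257 ± 0.445 CPM (n = 3). Adamts20 was at 0 in the blood of both E10 batches, and its call was lost without E10 replicate 2 (adjusted p = 0.0930 in edgeR) and without E10 replicate 3 (0.0609). The 2 genes lower than in neural cells were Chst11, which sulphates chondroitin, at 3.27 ± 1.07 against 40.1 ± 29.3 CPM (n = 5), and Tmem2, a cell surface hyaluronidase, at 42.5 ± 26.3 against 121 ± 52.2 CPM. The call of Tmem2, at a log2 fold change of -1.67, was lost without E10 replicate 3 (-1.39, adjusted p = 0.05005 in edgeR) and without the block (-1.53). The list's median was 1.95 against blood and 0.50 against neural cells. Against the other cells 0 of 16 passed.

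Among the genes of microfibrils and elastic fibres, 7 of 19 tested were higher than in blood and 4 of 21 higher than in neural cells, with none lower in either, where 13.3% and 2.37% of all genes were higher. The 7 called against blood became 14 when E10 replicate 2 was left out and 4 when E10 replicate 3 was, and the 4 against neural cells became 2 without E9.5 replicate 2, 2 without E10 replicate 3 and 0 without the block. Mfap4, a protein of microfibrils, passed in both, at 110 ± 82.9 against 4.80 ± 1.94 CPM in blood (SD, n = 3) and 110 ± 59.6 against 25.7 ± 32.1 CPM in neural cells (n = 5). Tgfb2, a growth factor held latent by the matrix, was higher by 3.52 (SE 0.68) and 1.87 (SE 0.37). Its call against blood was lost without E10 replicate 3 (2.98), and that against neural cells when replicate 1 (1.83) or replicate 3 (1.85) of E10 was left out and without the block (1.85). The call of Mfap4 against neural cells was lost without the block (2.06). Fbln1 was higher than in blood by 4.35 (SE 0.69). Mfap2, whose product binds fibrillin, was the only gene of this list higher than in the other cells, at 371 ± 128 against 168 ± 94.6 CPM (SD, n = 5) and an adjusted p of 0.0176 in edgeR. That call was lost when E9.5 replicate 2 was left out (1.03), likewise with E10 replicate 2 (1.20) or E10 replicate 3 (1.04) left out, in thinned cells (0.68), without the block (1.07) and without the cells carrying Myb or Gfi1b (0.51), against a main value of 1.15. The list's medians were 2.81, 1.52 and 1.12 in the 3 comparisons.

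The list of matricellular genes also holds the protease gene Bmp1. Of this list, 6 of 8 tested were higher than in blood, 3 of 10 higher than in neural cells and 1 of 10 higher than in the other cells. None was lower, and 13.3%, 2.37% and 0.495% of all genes were higher. The 1 called against the other cells was Bmp1. The 6 called against blood became 3 without E9.5 replicate 2, and the 1 against the other cells became 3 without E9.5 replicate 1 and 0 without any other batch. Cyr61, an inducible matricellular gene, averaged 1192 ± 697 CPM in mesenchyme and 208 ± 151 CPM in neural cells (SD, n = 5). Thbs1 was higher in both by 4.26 (SE 0.82) and 3.46 (SE 0.76). Its call against blood was lost without E9.5 replicate 2 (4.64), and that against neural cells without E9.5 replicate 2 (3.08), without E10 replicate 3 (3.20) and without the block (3.03). Tgfbi, a relative of Postn, was higher than in neural cells by 2.85 (SE 0.51). Bmp1, a protease that processes procollagen, was higher than in blood by 3.85 (SE 0.76). It passed against the other cells at 1.68 (SE 0.33) but lost that call without E9.5 replicate 2 (1.47), and likewise without any of the 3 batches of E10 (1.76, 1.87 and 1.64 for replicates 1, 2 and 3), in thinned cells (0.90), with the Prrx1 limit at 50 or 200 CPM (1.98 and 1.42), without the block (1.56) and without the cells carrying Myb or Gfi1b (1.04).

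Of the proteases and inhibitors, 6 of 13 were higher and 1 lower than in blood, where 13.3% and 14.1% of all genes were, and 1 of 13 was higher and 1 lower than in neural cells, where 2.37% and 3.19% were. Mmp14 and Mmp2, which cleave collagens and other matrix proteins, were higher than in blood by 3.20 (SE 0.77) and 3.20 (SE 0.65). Adam12 was lower than in neural cells by a log2 fold change of -4.53 (SE 0.62), and Timp2, an inhibitor of such proteases, higher by 1.59 (SE 0.37). The call of Timp2 was lost when replicate 1 or replicate 3 of E10 was left out (1.37 each) and without the block (1.49), so that the 2 called against neural cells became 1 in each of these. No gene of these 5 lists passed between stages.

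The members were then read cell by cell. In cells thinned to 30000 UMIs, 83 of 125 mesenchyme cells held Fn1, Fbn2 and Vcan together, a share of 66.4% (95% exact binomial interval 57.4 to 74.6%, counting error only). The share was 44.6% in other, 24.5% in neural and 13.0% in blood cells. The median mesenchyme cell held 3 of the 7 genes, the median blood cell 1. Concentration differed between genes: the 10 highest cells of all 294 held 16.6% of the summed CPM of Fbn2, 23.2% of Vcan and 24.1% of Fn1. For Fbn1 the share was 33.8%, for Has2 56.9%, for Hapln1 68.4% and for Postn 71.8%. Has2, Hapln1 and Postn were thus read largely from a few cells, and their batch means move with those cells.

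**Figure D4:**
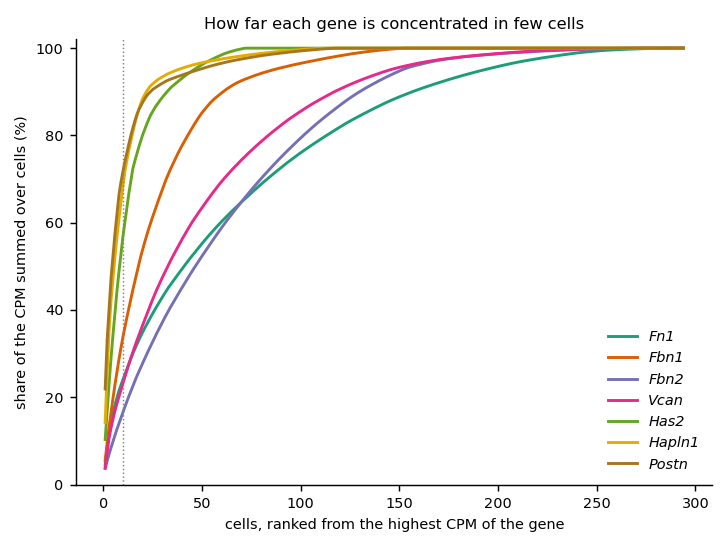
Share of each gene's CPM summed over the 294 cells (vertical axis, percent) held by the cells ranked from the highest (horizontal axis, number of cells). The dotted line marks the 10 highest cells, which hold 71.8% for Postn and 16.6% for Fbn2.

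Correlations were computed across the 199 mesenchyme and other cells, on log2 of CPM with 10 added and with each batch centred on its mean; cells of a batch share a library and its depth, so the values are descriptions. Fbn2 and Vcan had the highest r of the 21 pairs, 0.44, and lay above 0 in 5 of 5 batches, from 0.27 to 0.65. Within the 125 mesenchyme cells alone the value was 0.26. Fbn1 and Fbn2 followed at 0.32, then Fn1 and Vcan at 0.27. Fbn1 and Hapln1 reached 0.27 too, but a rank correlation gave 0.064. Vcan and Hapln1, which bind the same sugar chain and are neighbours on the chromosome, had the lowest r of all pairs, -0.12, and ranged from -0.47 in E9.5 replicate 1 to 0.38 in E10 replicate 3. Within the mesenchyme cells alone the sign turned, to 0.12. Has2 had no r above 0.11 with any other member. The median over the 21 pairs was 0.10.

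**Figure D5:**
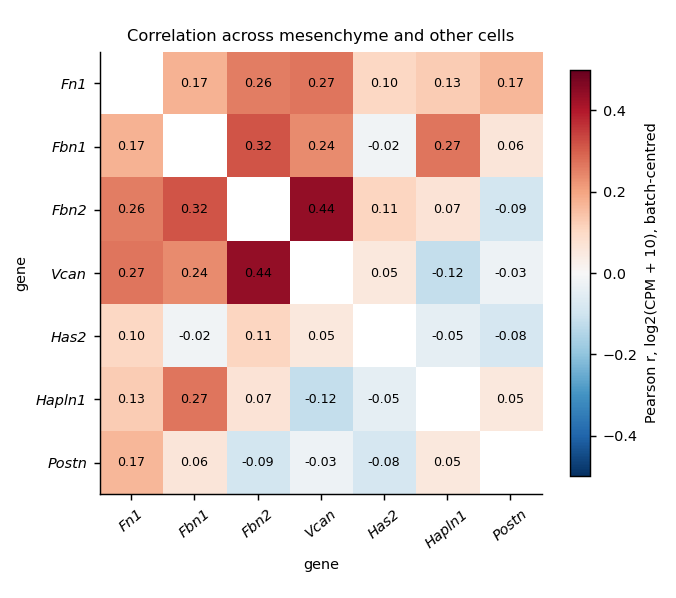
Pearson r between each pair of the 7 genes (both axes) across 199 mesenchyme and other cells, from log2 of CPM with 10 added, centred within batches. The highest value is 0.44 for Fbn2 with Vcan and the lowest is -0.12 for Vcan with Hapln1.

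Of 9929 genes with a UMI in at least 25% of these cells, those most like each member were as follows. Fbn2 was closest to Sox11 (r of 0.52), Igfbp4 (0.51) and Mdk (0.50), and Vcan to Tuba1a (0.48), Gpc3 (0.48) and Marcks (0.47). Fn1 was closest to Ckap4 (0.44), Actn1 (0.43) and Myl12a (0.42). Hapln1 had the highest single value, 0.59 with Ecm1, which ranged over batches from -0.089 to 0.85, followed by Gata4 (0.48) and Myrf (0.44). Postn was closest to Actc1 (0.41), Tgfb1i1 (0.33) and Mical1 (0.32). Fbn1 was closest to Tmsb4x (0.38), Thnsl1 (0.37) and Igsf3 (0.37), and Has2 to Mpped2, Tbx3 and Celsr2 at 0.30, 0.30 and 0.28. For scale, the highest 1 in 100 of these genes began at 0.33 for Fbn2, 0.30 for Vcan, 0.26 for Fn1 and 0.19 for Has2. Besides Ecm1, the lowest value over batches was below 0 for Sox11 (-0.22) and Igfbp4 (-0.14) with Fbn2. It was also below 0 for Myl12a with Fn1 (-0.071), Thnsl1 with Fbn1 (-0.12), Tbx3 with Has2 (-0.12) and Tgfb1i1 with Postn (-0.0091).

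The cells with Dppa5a of E10 replicate 1 were read separately, since no other batch had them. The 13 of them in mesenchyme had summed levels of 320 CPM of Fn1, 139 of Fbn2, 142 of Vcan and 17.4 of Fbn1. The 38 mesenchyme cells of that batch with less Dppa5a had 245, 247, 308 and 49.5 CPM in the same order, and their single-cell ranges overlapped for each gene. With the Dppa5a cells left out, 2 of the 7 genes passed against neural cells and 0 against the other cells or between stages, as before. The comparison with blood does not include E10 replicate 1, so no cell left it and its result could not change.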

How the data were processed

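The authors deposited 1 table of UMI counts per gene and well for 5 batches. Per the submitters' processing notes, CASAVA 1.8, TopHat2 2.0.12, HTSeq and the mm10 build were used, and the labels describe a modified STRT-seq protocol whereas the series text names Smart-Seq. Columns were matched to samples by batch number alone, and the strand setting is not given in the sources used here. No doublet caller was run, as cells were picked singly.

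From these counts, 95 spike-in rows were dropped, and 294 of 480 columns were kept (1000 genes and 30000 UMIs, 111 columns being empty). Kept batches held 7545865 to 44415774 UMIs. The 7 members and the related lists were chosen with earlier results of these data known. Counts were summed per batch and class, with at least 3 cells per sum, and tested in edgeR 4.0.16 under R 4.3.3 (filterByExpr, TMM, quasi-likelihood test, Benjamini-Hochberg adjustment at 0.05), with batch as a block between classes and no block between stages. The block was used because both sums of a batch come from 1 collection. Named related genes were drawn from the 3 with the greatest change per list among those passing, plus Itga5, Itgb1, Itgav and Cd44. Mmp16 and Smoc1 against blood (log2 fold changes of 4.72 and 3.84) met this rule but are not described above. The same holds for Emilin2 and Itgb5 against neural cells (3.23 and 2.50). Each of these lost its call under at least 1 alternative. For likeness, the 3 genes of highest r were named. DESeq2 1.42.0, other scalings, filters, limits and left-out batches were alternatives, and the fits were tested on simulated data. Promoter sequences from RefSeq (GRCm38.p6) matched Fbn1, Vcan, Hapln1 and Postn, 4 of the 7 genes.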

Additional observations from a re-analysis of the deposited data

Results flagged for a closer look

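Over 35 sets of 5 batches, 3 held 1 batch far from the others, where chance would give about 1 in 20 sets. The sets share batches and cells and are not independent, and whether 3 exceeds chance was not tested. The difference of Fbn2 between mesenchyme and neural cells, on log2 of CPM with 1 added, was 3.46 in E10 replicate 3 and 0.77 to 1.38 in the other batches. The level of Hapln1 in the other cells was 235 CPM in E9.5 replicate 1 and at most 39.3 CPM elsewhere. The level of Postn in the other cells was 14.2 CPM in E10 replicate 1 and at most 4.15 CPM elsewhere. The cause of each was not tested.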

How the results depend on the processing

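Against blood, both called genes kept their calls under every alternative run for that comparison. Some of these used the same 103 cells and sums as the main fit and could not change a call. They were at least 5 cells per sum, cells passing 2 limits left out, and the Dppa5a cells left out. The number of genes passing was 1707 in cells thinned to 30000 UMIs in place of 2808, and 1459 to 3101 with 1 batch left out. Against neural cells 596 genes passed, 1200 with DESeq2, 1027 with no filter on low counts, 369 in thinned cells, 344 without the replicate block and 316 to 617 with 1 batch left out. Of the 7 genes 1 passed in thinned cells, 1 without the block and 1 to 2 with 1 batch left out. Fn1 passed only with no filter on low counts (0.92). Against the other cells 80 genes passed, 840 with DESeq2, 736 with no filter, 27 in thinned cells, 48 and 226 with the Prrx1 limit at 50 and 200 CPM, 3 without the block, 5 without the Myb or Gfi1b cells and 9 to 178 with 1 batch left out. Of the 7 genes 1 passed with DESeq2, 2 with no filter (Vcan and Hapln1) and 1 with the limit at 50 CPM. On the scale of totals 78.0% of the genes called against the other cells were higher, in place of 66.2%. Between stages the counts of 0 became 119 and 220 with DESeq2, 156 and 40 with no filter, and 0 to 12 and 0 to 41 with 1 batch left out, a lone E9.5 batch being assumed to vary like the E10 batches. No paired analysis was possible because each batch holds 1 stage, and the replicate numbers within a stage only name the batches. The median correlation of pairs was 0.057 to 0.15 under its alternatives.

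Uncalled log2 fold changes that changed sign were these, and the cause was not tested. Against the other cells, Fbn1 (0.0056) was -0.011 with RLE factors, -0.010 with DESeq2, -0.0033 with a minimum of 5000 UMIs, -0.12 with the limit at 50 CPM, -0.13 without the Dppa5a cells and -0.64 without the Myb or Gfi1b cells, which also gave Fbn2 -0.19 and Cd44 1.604. Cd44 against neural cells was 0.17 with at least 5 cells per sum. Between stages in mesenchyme, thinning gave Fn1 -0.051 and Postn 0.77. Between stages in the other cells, Has2 was -0.010 with RLE factors, -0.017 with DESeq2, -0.12 with the limit at 200 CPM, -0.093 without the Dppa5a cells and -0.46 without the Myb or Gfi1b cells, which gave Postn -0.57 and Cd44 0.022. Thinning gave Fbn2 -0.053, and the scale of totals gave Cd44 0.024. With 1 batch left out, the ranges that crossed 0 were: Cd44 against blood -0.24 to 1.29; against neural cells Fbn1 -0.34 to 0.72 and Cd44 -0.44 to 0.41; against the other cells Fbn1 -0.41 to 0.37. Between stages in mesenchyme they were Fn1 -0.30 to 1.16, Fbn2 -0.45 to 1.03, Vcan -0.16 to 0.93, Postn -1.46 to 2.92, Itga5 -1.19 to 0.87, Itgav -0.0043 to 1.41 and Cd44 -0.047 to 2.51. In the other cells they were Fn1 -0.75 to 0.11, Fbn1 -1.47 to 0.98, Fbn2 -0.40 to 1.49, Has2 -0.89 to 0.60, Itga5 -1.05 to 0.89, Itgb1 -1.51 to 0.17 and Cd44 -1.16 to 4.33. Depth limits the sparse genes: at 30000 UMIs 1 molecule is the least that a cell can show.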
